A study of Homo sapiens with 12 samples.

Results

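The enzymes that build purine and pyrimidine nucleotides from simple precursors were examined in oral squamous cell carcinoma (OSCC) cells treated with rapamycin. The members were the 10 genes PPAT, GART, PFAS, PAICS, ADSL, ATIC, CAD, DHODH, UMPS and IMPDH2, out of 58302 gene identifiers counted. They were chosen by their place in the pathway, with earlier results of these data known. All 10 were among the 15826 genes with enough counts to be tested. RNA-seq held 4 libraries, 2 from cells given 100 nM rapamycin and 2 from control cells, all labelled as OSCC cells. MeRIP-seq, in which RNA fragments carrying N6-methyladenosine (m6A) are pulled down by an antibody and sequenced beside the input RNA, held 1 pair of pulled-down and input libraries for each of HSC3 and CAL33 cells, without rapamycin and with 100 nM for 3 days. HSC3 and CAL33 are established human OSCC lines, and the labels name no genetic change in either arm. The RNA-seq labels give the rapamycin dose without a duration, and no vehicle is named for the controls.

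The sample labels of the RNA-seq libraries name HSC3 for both rapamycin libraries and CAL33 for both control libraries, so by these labels treatment and cell line cannot be told apart. The MeRIP-seq titles, by contrast, use number 1 for HSC3 and number 2 for CAL33 under both treatments. The RNA-seq libraries also carry the numbers 1 and 2, and libraries with the same number were the more alike (correlation of log2 CPM across genes 0.966 and 0.956, against 0.761 to 0.811 for the other pairs). Rapamycin 1 is therefore set beside control 1 and rapamycin 2 beside control 2, and the cell line of each pair is not named. Nothing states that libraries came from separate cultures, so a p-value speaks only for these libraries. It rests on their spread, moderated with the spread of other genes. Totals ranged from 18492273 to 23763098 counts per library. Summed squamous epithelial markers ranged from 394 to 4570 CPM (counts scaled to library size, with edgeR's TMM factors), with 5 of 7 markers above 1 CPM in every library. KRT5, a keratin of basal squamous cells, was 6.10 and 327 CPM with rapamycin and 34.2 and 1703 CPM in controls 1 and 2, and KRT14 was at 0 in both libraries numbered 1. KRT6A, SFN and DSG3 were also lower with rapamycin in both pairs. KRT17 was not, at 103% and 157% of control in pairs 1 and 2, and TP63 was at 68.7% and 106%. Summed simple epithelial markers (3 of 3 above 1 CPM in every library) ranged from 1370 to 6150 CPM, fibroblast markers from 8.79 to 44.1 CPM with COL1A2 and COL3A1 at 0, endothelial markers from 1.42 to 45.4 CPM, and leukocyte markers from 0.127 to 0.494 CPM with PTPRC at 0.

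Purine synthesis assembles the ring on ribose phosphate in a series of steps that ends in inosine monophosphate, which is then turned into adenine and guanine nucleotides. Pyrimidine synthesis makes the ring first, joins it to ribose phosphate and ends in uridine monophosphate. The cytosine, uracil and thymine nucleotides made by this route come from it. Rapamycin inhibits mTORC1, a kinase complex that couples nutrient supply to growth and is known to promote both routes, through phosphorylation of CAD and through transcription factors including MYC and ATF4. Dividing cells rely on these routes to copy DNA and to make ribosomal RNA.

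The start regions of these genes were read for the E-box CACGTG, the site preferred by MYC and related factors, whose letters read the same on both strands. RefSeq windows (GRCh38.p14, 250 bases before to 50 bases after a start site) were found for 8 of the 10 genes. The hexamer was present in windows of 4 of these 8 genes, PPAT, PAICS, ATIC and DHODH, and in 2396 of 27305 genes with a window (8.77%). By window it was present in 4 of 12, against 2548 of 35116 (7.26%). PPAT and PAICS, which encode the first enzyme of purine synthesis and an enzyme of its middle steps, lie head to head, with the PPAT start 137 bp from a PAICS start. The windows of these starts overlap by 236 bp and hold the same E-box at chr4:56435792-56435797, 182 bases before the PPAT start and 40 bases after this PAICS start. PAICS has other RefSeq starts, at chr4:56410507 and chr4:56436260, whose windows hold no E-box. ATIC held 2, at 46 bases before and 29 bases after its start, and DHODH held 1, at 159 bases before. The windows of CAD, UMPS, GART and PFAS held none, which says only that these letters are not in these 300 bases. The shared PPAT and PAICS window and those of ATIC and DHODH are printed because they hold the hexamer, given in capitals. The windows of CAD and UMPS are printed because these members had the lowest fitted log2 fold changes, rapamycin over control. Each reads 5′ to 3′ on the strand of the gene named first in its line.
PAICS (chr4:56435502-56435801, plus strand, also spanning the PPAT start): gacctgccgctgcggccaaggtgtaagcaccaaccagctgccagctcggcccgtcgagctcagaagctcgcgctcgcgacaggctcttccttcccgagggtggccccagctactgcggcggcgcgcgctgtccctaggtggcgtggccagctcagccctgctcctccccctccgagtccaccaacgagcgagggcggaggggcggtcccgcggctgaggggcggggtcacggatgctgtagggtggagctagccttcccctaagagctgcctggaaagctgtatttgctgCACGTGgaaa
ATIC (chr2:215311809-215312108, plus strand): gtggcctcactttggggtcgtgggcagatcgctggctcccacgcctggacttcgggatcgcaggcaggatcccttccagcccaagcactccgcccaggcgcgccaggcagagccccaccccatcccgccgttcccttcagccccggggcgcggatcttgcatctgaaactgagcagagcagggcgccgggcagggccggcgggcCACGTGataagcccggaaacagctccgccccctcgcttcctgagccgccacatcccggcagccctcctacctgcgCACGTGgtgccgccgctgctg
DHODH (chr16:72008494-72008793, plus strand): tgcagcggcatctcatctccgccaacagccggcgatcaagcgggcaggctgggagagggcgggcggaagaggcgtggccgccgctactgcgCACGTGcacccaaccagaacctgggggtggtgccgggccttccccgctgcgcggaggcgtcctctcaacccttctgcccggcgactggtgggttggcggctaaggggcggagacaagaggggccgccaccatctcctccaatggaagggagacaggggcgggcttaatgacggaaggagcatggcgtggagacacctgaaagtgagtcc
CAD (chr2:27217119-27217418, plus strand): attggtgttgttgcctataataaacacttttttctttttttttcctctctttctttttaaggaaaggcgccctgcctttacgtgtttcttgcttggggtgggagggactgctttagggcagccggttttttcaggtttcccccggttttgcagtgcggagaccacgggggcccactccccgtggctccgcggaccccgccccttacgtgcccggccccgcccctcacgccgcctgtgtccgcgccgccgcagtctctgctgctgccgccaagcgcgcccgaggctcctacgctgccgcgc
UMPS (chr3:124730202-124730501, plus strand): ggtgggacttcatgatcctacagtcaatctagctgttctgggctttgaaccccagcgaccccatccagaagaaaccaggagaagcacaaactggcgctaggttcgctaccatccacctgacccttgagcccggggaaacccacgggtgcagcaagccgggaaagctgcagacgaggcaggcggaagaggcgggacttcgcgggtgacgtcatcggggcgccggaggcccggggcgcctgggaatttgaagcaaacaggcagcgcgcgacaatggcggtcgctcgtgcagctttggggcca

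Rapamycin was compared with control to ask whether mRNA of these enzymes differed between the arms. CAD and UMPS, which carry the first and the last steps of pyrimidine synthesis, had the lowest fitted log2 fold changes, rapamycin over control. With the replicate number as a block, both fell by about 1 on the log2 scale and passed the threshold, and the other 8 did not. Each number holds 1 library per arm, so the SE and p-value of a blocked fit rest largely on spread shared across genes. Without the block none of the 10 passed. The number 2 pair showed lower values with rapamycin for 10 of 10 genes, and the number 1 pair for 6 of 10. Over all tested genes the median log2 difference was 0.030 in pair 2 and 0.003 in pair 1. Lower values were thus no more common than higher ones in either pair.

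In edgeR's quasi-likelihood test without the block, 0 of 10 members had a Benjamini-Hochberg adjusted p under 0.05, and 0 of all 15826 genes did (0% of genes called). At an unadjusted p under 0.05 that fit held 0 members and 446 of all genes, and DESeq2 without the block called 0 members and 42 genes. DESeq2 gave no adjusted p to 6750 genes there, ADSL and DHODH among them, so these could not be called. With the block, edgeR called 2 of 10 members lower, where 3.50% of all genes were called lower, and 0 of 10 higher, where 4.65% were called higher. The all-gene split with the block was 554 lower and 736 higher, and upper-quartile scaling moved it to 360 lower and 805 higher. With the block 5 of 10 members had an unadjusted p under 0.05, as did 3736 of all genes (23.6%). The median log2 fold change of the 10 was -0.57 with the block and -0.35 without it, beside 0.05 and 0.06 over all tested genes. Without the block it was -1.25 when rapamycin 1 was left out, -0.02 without rapamycin 2, -0.17 without control 1 and -0.63 without control 2. With a library left out, 1 of the numbers stands in only 1 arm, so differences between the numbers enter such values.

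Read without a model, neither rapamycin library reached the level of either control for 3 of 10 members (CAD, UMPS and IMPDH2), a pattern held by 16.5% of all tested genes. In the related lists read below, both rapamycin libraries lay below both controls for 6 of 17 interconversion and 6 of 15 salvage genes. For one-carbon and ribose phosphate genes the counts were 4 of 13 and 1 of 9. Both lay above both controls for 0 of 10 members, against 15.0% of all genes. Rapamycin was lower in each numbered pair for 6 of 10, against 31.8% of all genes, and the pairs went opposite ways for 4, as they did for 30.1% of all genes. Lower values in each pair were held by 11 of 17 interconversion, 11 of 15 salvage, 4 of 13 one-carbon and 3 of 9 ribose phosphate genes. The median within-pair log2 difference of the members was -0.19 in pair 1 and -1.05 in pair 2, beside 0.00 and 0.03 over all genes. The difference was lower in pair 2 than in pair 1 for 9 of 10, with IMPDH2 as the exception. In the related lists read below this held for 13 of 17 interconversion, 11 of 15 salvage, 10 of 13 one-carbon and 2 of 9 ribose phosphate genes. The share over all genes was not counted. A lower level in such bulk RNA can come from fewer cells that make the transcript or from less of it per cell, and these cannot be told apart here.

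**Figure D1:**
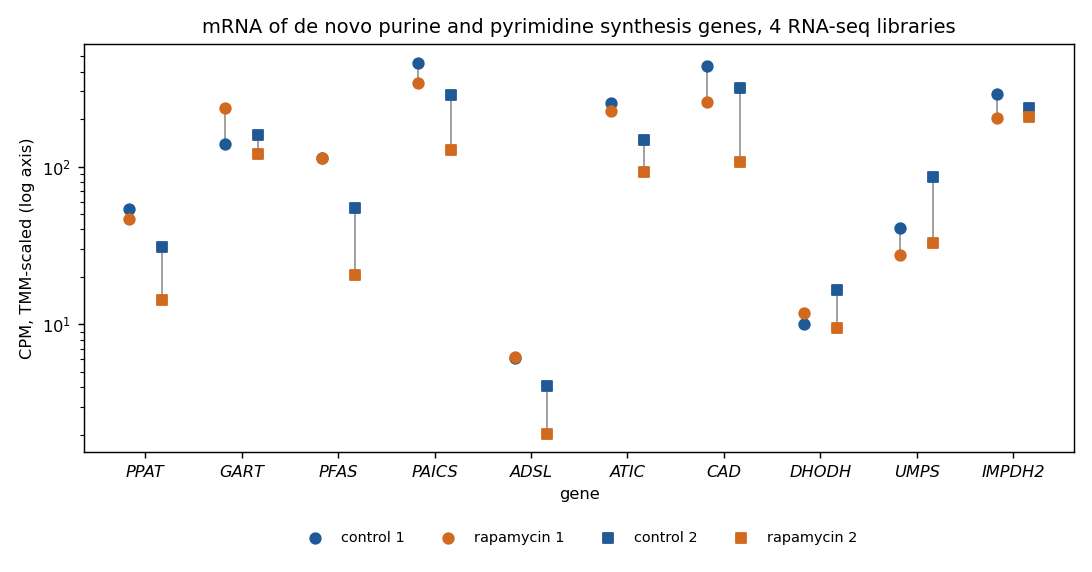
CPM (TMM-scaled, log axis) of the 10 genes in each of the 4 RNA-seq libraries, with blue for control, orange for rapamycin, circles for number 1 and squares for number 2. Grey lines join the libraries of a numbered pair. In the number 2 pair the rapamycin point lies below the control point for 10 of 10 genes, and in the number 1 pair for 6 of 10. Over all tested genes, lower values were no more common than higher ones in either pair.

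CAD is a single protein with the first 3 activities of pyrimidine synthesis (carbamoyl phosphate synthetase, aspartate transcarbamoylase and dihydroorotase). CAD mRNA was 258 and 106 CPM in rapamycin 1 and 2, and 434 and 315 CPM in control 1 and 2. Both rapamycin libraries were below both controls, at 59.4% of control in pair 1 and 33.8% in pair 2. The log2 fold change was -1.04 (SE 0.55, adjusted p = 0.9997, edgeR's quasi-likelihood test, Benjamini-Hochberg adjusted) without the block and -1.16 (SE 0.27, adjusted p = 0.009541) with it. It was called in 4 of 4 fits with the block (adjusted p 0.008056 to 0.01864, edgeR and DESeq2), and 3.27% of all genes had a value at or below it. Without the block, the value was -1.84 when rapamycin 1 was left out and -0.56 when rapamycin 2 was. CAD spans chr2:27217369-27243943 and overlaps no other annotated RefSeq gene.

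DHODH, the dehydrogenase of the inner mitochondrial membrane that oxidizes dihydroorotate to orotate, showed no shared direction. Its mRNA was 11.8 and 9.55 CPM with rapamycin and 10.1 and 16.5 CPM in controls 1 and 2. The rapamycin and control ranges overlapped, with 116% of control in pair 1 and 57.9% in pair 2. With the block its log2 fold change was -0.28 (SE 0.39, adjusted p = 0.7087 by edgeR), and without it -0.32 (SE 0.51).

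UMPS joins orotate to ribose phosphate and removes its carboxyl group to give uridine monophosphate. UMPS mRNA was 27.4 and 32.9 CPM in rapamycin 1 and 2, and 40.9 and 86.4 CPM in control 1 and 2. Both rapamycin libraries were below both controls, at 67.0% of control in pair 1 and 38.1% in pair 2. The log2 fold change was -1.08 (SE 0.49, adjusted p = 0.9997) without the block and -0.99 (SE 0.29, adjusted p = 0.03706) with it, both by edgeR. The call held in 2 of 4 fits with the block, and its adjusted p was 0.06151 with upper-quartile scaling and 0.09122 with DESeq2. Without the block, the value was -0.45 when control 2 was left out, and -1.58 when control 1 was. The UMPS gene body holds the microRNA gene MIR544B and the pseudogene RPS26P22 in RefSeq, so some of its counts could be shared with them. Of the members, UMPS was one of 3 in the controls with a lower level in number 1 than in number 2.

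Of the purine genes, 4 (PPAT, PAICS, ATIC and IMPDH2) were lower with rapamycin in both pairs, and none was called in any fit. PPAT, the amidotransferase of the committed step, was 46.4 and 14.2 CPM with rapamycin and 54.0 and 31.0 CPM in controls 1 and 2. PAICS, which adds the carboxyl and aspartate groups to the growing ring, was 341 and 127 CPM with rapamycin and 457 and 286 CPM in controls 1 and 2. In both genes rapamycin was below control within each pair while the ranges of the arms overlapped. These head-to-head genes were at 86.0% and 45.8% of control (PPAT) and 74.6% and 44.4% (PAICS) in pairs 1 and 2. The log2 fold change with the block was -0.66 (SE 0.31, adjusted p = 0.1875) for PPAT and -0.80 (SE 0.27, adjusted p = 0.06262) for PAICS, by edgeR. Without it the values were -0.49 (SE 0.72) and -0.67 (SE 0.62). In RefSeq the gene bodies overlap by 25109 bp on opposite strands, counted from the PAICS start at chr4:56410507. The library kit is stranded by its label, but the use of strand in counting is not given in the sources used here, so reads of the overlap cannot be assigned with certainty. RefSeq also lists pseudogenes of both by symbol (2 for PPAT and 7 for PAICS), to which reads could be shared.

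GART carries 3 activities of early purine synthesis in one protein and was the one member with a positive log2 fold change. Its mRNA was 234 and 120 CPM with rapamycin and 139 and 158 CPM in controls 1 and 2. Rapamycin 1 was the highest of the 4 libraries and rapamycin 2 the lowest, at 168% and 75.7% of control. In the blocked fit GART had a log2 fold change of 0.18 (SE 0.29, adjusted p = 0.7587 by edgeR), and without the block 0.25 (SE 0.43). The pseudogene BTF3P6 lies within GART in RefSeq.

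PFAS, the amidotransferase that acts between GART steps, was 114 and 20.7 CPM with rapamycin and 114 and 54.8 CPM in controls 1 and 2. ADSL, which splits off fumarate in both the main route and the branch to adenine nucleotides, was 6.21 and 2.03 CPM with rapamycin and 6.14 and 4.10 CPM in controls. Both genes were level in pair 1 (100% and 101% of control) and low in pair 2 (37.8% and 49.5%). The log2 fold change with the block was -0.69 (SE 0.32, adjusted p = 0.1988) for PFAS and -0.48 (SE 0.50, adjusted p = 0.6107) for ADSL, by edgeR. Without it the values were -0.32 (SE 0.95) and -0.31 (SE 0.85). ADSL rested on 37 to 133 counts per library, the fewest of the 10. Each of them overlaps another protein-coding gene in RefSeq, CTC1 for PFAS and SGSM3 for ADSL, so part of their counts is uncertain.

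ATIC, which closes the purine ring to inosine monophosphate, was 224 and 92.1 CPM with rapamycin and 252 and 149 CPM in controls 1 and 2. Rapamycin was lower within each pair, at 88.8% and 62.0% of control, while the ranges of the arms overlapped. The blocked log2 fold change was -0.43 (SE 0.26, adjusted p = 0.3239 by edgeR), and without the block -0.34 (SE 0.59). The far end of ATIC overlaps FN1 in RefSeq, with the same limit on its counts.

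IMPDH2 commits inosine monophosphate to guanine nucleotides and was lower with rapamycin in both pairs. Its mRNA was 202 and 208 CPM with rapamycin and 288 and 234 CPM in controls 1 and 2. Both rapamycin libraries lay below both controls, by less than the other members without overlap, at 70.0% and 88.6% of control. With the block it differed by a log2 fold change of -0.34 (SE 0.26, adjusted p = 0.4368 by edgeR), and without the block -0.35 (SE 0.29).

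**Figure D2:**
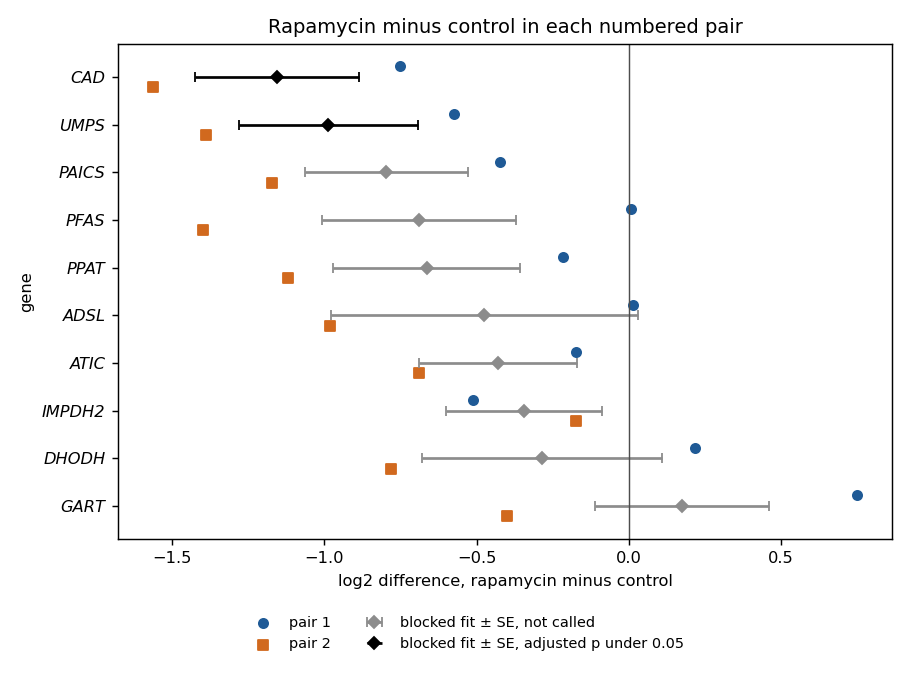
Within-pair log2 differences, rapamycin minus control, for the 10 genes (blue circles pair 1, orange squares pair 2), with the edgeR log2 fold change from the fit with the replicate block (diamonds, bars ± SE, black where the adjusted p is under 0.05). CAD and UMPS are the black diamonds, at -1.16 and -0.99, and GART is the one diamond above 0.

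Levels also differed between the numbers. In the controls 7 of 10 were higher in number 1 than in number 2, and with rapamycin 8 of 10. The same counts in the related lists read below were 7 and 9 of 17 (interconversion) and 11 and 12 of 15 (salvage). They were 5 and 9 of 13 (one-carbon supply) and 4 and 2 of 9 (ribose phosphate). The share over all tested genes was not counted. PFAS, for example, was 114 CPM in control 1 and 54.8 CPM in control 2. The common dispersion measures the spread between libraries that a fit leaves over. It was 0.636 without the block, as spread within an arm, and 0.061 with it, after number and treatment were both fitted.

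The neighbouring routes of nucleotide supply were read from 4 lists of 56 genes, of which 54 were tested. Without the block edgeR called 0 of them, with 0 at an unadjusted p under 0.05 and 0 called by DESeq2. DESeq2 gave no adjusted p there to ADSS1, NME1, NME2, MTHFD2L and ALDH1L2. With the block edgeR called 8, of which 5 were lower and 3 higher, beside the 3.50% and 4.65% of all genes called in those directions.

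Enzymes that interconvert nucleotides and make deoxynucleotides had 3 of 17 genes lower and 1 higher with the block, with a median log2 fold change of -0.40. CTPS1, which makes cytidine triphosphate from the uridine form, fell from 296 and 168 CPM in controls 1 and 2 to 149 and 57.0 CPM with rapamycin (log2 fold change -1.27, SE 0.27, adjusted p = 0.004749 by edgeR with the block). RRM2, the small subunit of ribonucleotide reductase, was 138 and 39.7 CPM with rapamycin and 190 and 154 CPM in controls (-1.20, SE 0.33, adjusted p = 0.03977, edgeR). TYMS, thymidylate synthase, was 173 and 52.8 CPM with rapamycin and 282 and 139 CPM in controls (-1.05, SE 0.27, adjusted p = 0.01588, edgeR). These 3 genes were lower with rapamycin in each pair, and RRM2 was not called by DESeq2 with the block (adjusted p = 0.05753). ADSS1, a synthetase on the branch to adenine nucleotides that is best known from muscle, was higher with 6.10 and 27.5 CPM against 3.05 and 7.22 CPM (1.49, SE 0.42, adjusted p = 0.02657, edgeR). DESeq2 with the block did not call ADSS1 (adjusted p = 0.08091) and called 2 of the 17 genes in all.

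Genes that supply one-carbon units, which ring closure and thymidylate synthesis consume, moved in both directions, with 1 of 13 tested genes lower and 2 higher with the block and a median of 0.08. SLC19A1, the reduced folate carrier, was 35.2 and 16.4 CPM with rapamycin and 71.1 and 49.7 CPM in controls (-1.31, SE 0.29, adjusted p = 0.00717 by edgeR with the block). PSAT1, an aminotransferase of serine synthesis, was 743 and 316 CPM with rapamycin and 218 and 205 CPM in controls (1.20, SE 0.29, adjusted p = 0.01398, edgeR). ALDH1L2, a mitochondrial folate dehydrogenase, was 26.7 and 2.30 CPM with rapamycin and 7.99 and 0.929 CPM in controls (1.56, SE 0.44, adjusted p = 0.02754, edgeR), and was not called by DESeq2 with the block (adjusted p = 0.07246). Both rapamycin libraries lay below both controls for 4 of the 13 (SLC19A1, MTHFD1, SHMT1 and PSPH), against 16.5% of all genes. Both lay above both controls for another 4 of the 13, against 15.0% of all genes. These were PSAT1 and 3 genes named after their values were seen, PHGDH (178% and 150% of control in pairs 1 and 2), SHMT2 (178% and 142%) and MTHFD2 (197% and 150%), enzymes of serine synthesis and mitochondrial folate metabolism. With the block none of these 3 passed in edgeR (adjusted p = 0.08607, 0.1049 and 0.05815), while in DESeq2 PHGDH and MTHFD2 passed (0.04191 and 0.03747) and SHMT2 did not (0.0737).

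Salvage and turnover genes, which recycle bases and nucleosides, had 1 of 15 lower, 0 higher and a median of -0.24 with the block. The 1 was PNP, purine nucleoside phosphorylase, at 75.6 and 48.1 CPM with rapamycin and 154 and 103 CPM in controls (-1.06, SE 0.26, adjusted p = 0.0111, edgeR). The ribose phosphate list had 0 of 9 called in either direction by edgeR with or without the block and by DESeq2 with or without it, with 2 of 9 at an unadjusted p under 0.05 with the block, beside 23.6% of all genes, and 0 without, and a median of 0.04.

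**Figure D3:**
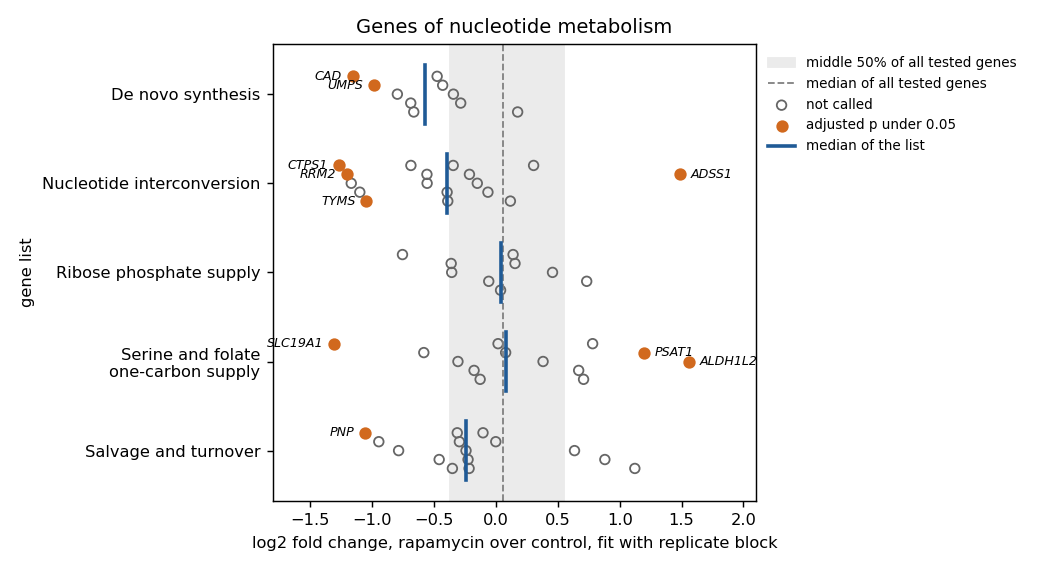
Log2 fold changes (rapamycin over control, edgeR fit with the replicate block) of each tested gene in the 5 lists of nucleotide metabolism, with filled orange points for adjusted p under 0.05, blue bars for list medians and grey for the middle 50% of all tested genes. The de novo list has the lowest median in this fit, -0.57, whereas without the block the interconversion list is lower (-0.47 against -0.35), and the serine and folate list holds called genes on both sides.

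MYC and ATF4, transcription factors with targets in these routes, were not lower with rapamycin. MYC mRNA was 608 and 250 CPM in rapamycin 1 and 2, and 188 and 158 CPM in control 1 and 2. Both rapamycin libraries were above both controls, at 323% and 158% of control. MYC had a log2 fold change of 1.18 (SE 0.28, adjusted p = 0.01187, edgeR with the block) and 1.31 (SE 0.54, adjusted p = 0.9997) without the block. ATF4 mRNA was 658 and 528 CPM with rapamycin and 392 and 435 CPM in controls, also without overlap. Its log2 fold change was 0.51 (SE 0.26, adjusted p = 0.2313, edgeR with the block).

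The m6A peak lists were read to ask which of these transcripts carried a peak in each cell line and treatment. There were 9 peaks on 4 of the 10 genes (UMPS, PFAS, PAICS and IMPDH2), all 9 inside the RefSeq gene on GRCh38.p14, and 6 genes had none. Peaks were called by the authors on 1 pair of libraries per condition, so no test between treatments was made within a cell line, and the depth behind the peaks is unknown. UMPS and PFAS were the members with a peak in HSC3 control cells (2 of 10, against 17.6% of all tested genes) and also in CAL33 control cells (2 of 10, against 16.1%). HSC3 rapamycin cells had peaks on UMPS, PAICS and IMPDH2 (3 of 10, against 17.5%), and CAL33 rapamycin cells had a peak on 0 of 10 (against 14.2%).

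UMPS held 5 of the 9 peaks, all annotated to the coding sequence and within 660 bp (chr3:124737654-124738313, plus strand). In HSC3 control cells the peak at chr3:124737654-124737834 had a fold enrichment over input of 140, and the peak at chr3:124738103-124738313 had 308. These values were higher than 81.7% and 94.2% of the peaks of that list. In HSC3 rapamycin cells a single peak at chr3:124737654-124738073 had a fold enrichment of 32.8, at the 49.9th percentile of its list. It covered the whole first control peak (181 bp) and ended short of the second. In CAL33 control cells the peaks were at chr3:124737654-124737864 (29.3, percentile 39.5) and chr3:124738013-124738133 (2.49, percentile 1.99). CAL33 rapamycin cells had no UMPS peak, and 3 of the 5 peaks in the other lists shared their first base. Absence from a list is common, since 30.4% of the 822 tested genes with peaks in the other three lists had none in CAL33 rapamycin cells. UMPS mRNA was also lower with rapamycin in both RNA-seq pairs, and its part in the peak calls was not tested.

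**Figure D4:**
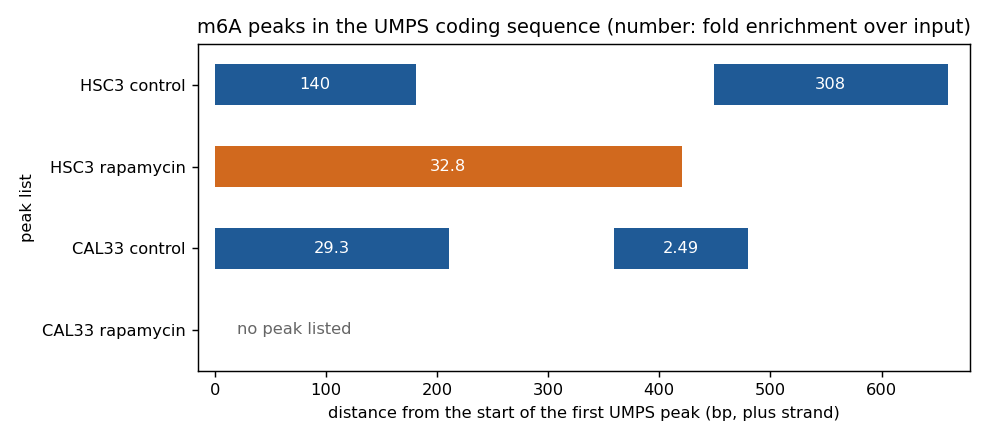
Position of the UMPS coding-sequence peaks in the 4 m6A peak lists, as distance in bp from the start of the first peak, with blue for control and orange for rapamycin and the fold enrichment over input in each bar. The first control peaks in both lines and the HSC3 rapamycin peak begin at the same base, and CAL33 rapamycin has no bar.

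PFAS had 1 peak in the 3′ UTR in each control list and none with rapamycin. The HSC3 peak lay at chr17:8269233-8269473 with a fold enrichment of 18.7 (percentile 36.0), and the CAL33 peak at chr17:8269562-8269802 with 29.8 (percentile 41.7). They did not overlap and were 88 bp apart. Of all tested genes with a control peak, 50.6% in HSC3 and 56.0% in CAL33 had no peak with rapamycin.

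The PAICS and IMPDH2 peaks were in HSC3 rapamycin cells, with fold enrichments among the lowest of that list. The p-values that the authors deposited with the peaks give another order. By these the PAICS peak was stronger than both PFAS peaks, and the first UMPS peak of CAL33 control cells was the strongest on any member. The PAICS peak in the 3′ UTR at chr4:56459668-56459878 had a fold enrichment of 3.87 (percentile 3.82). The IMPDH2 peak in the coding sequence at chr3:49024712-49024832, minus strand, had 3.48 (percentile 3.21). At a fold enrichment of at least 4, UMPS alone of the 10 had a peak in that list.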

How the data were processed

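For RNA-seq the authors deposited unnormalized read counts under Ensembl gene identifiers. For MeRIP-seq they deposited 1 peak list per pair of libraries, each peak with a fold enrichment (ratio over input), log10 p-value, log10 false discovery rate and a score. The submitters' notes name cutadapt 2.5, HISAT2 2.1.0, featureCounts 1.6.3, HOMER 4.10.4 and hg38 without roles. Use of strand in counting is not given in the sources used here. Of 58302 identifiers, 57532 were matched to a symbol.

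Counts were tested in R 4.3.3 with edgeR 4.0.16 (filterByExpr, TMM, robust quasi-likelihood test, Benjamini-Hochberg adjustment over 15826 genes at 0.05), with treatment alone and with the replicate number as a block. The difference between numbers 1 and 2 correlated between the rapamycin and control libraries across genes (r = 0.901). The pairing comes from the MeRIP-seq numbering, and the RNA-seq cell line labels go against it. Fold changes of the members are printed from both fits. An exact permutation test of 2 against 2 libraries cannot go below p = 0.333 (two-sided), so none was run. Alternatives were DESeq2 1.42.0, other scalings and filters, and each library left out. Within-pair differences used log2 CPM with a prior count of 2. Tests were checked on simulated data.

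Peaks were assigned to genes by identifier, ranked by percentile within their list, and compared by overlap of at least 1 bp on a strand. Intervals are counted from 1. Named genes were the 10 members, genes of 4 related lists past the threshold (at most 3 in each direction), MYC and ATF4. The members and lists were chosen with earlier results of these data known. Promoter windows are from RefSeq.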

Additional observations from a re-analysis of the deposited data

Results flagged for a closer look

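For 4 of the 10 genes the numbered pairs moved in opposite directions with rapamycin, and the difference between the pairs was not tested, since each pair holds 1 library per arm. The GART log2 difference was 0.75 in pair 1 and -0.40 in pair 2, a gap of 1.15. PFAS was at 0.01 and -1.40, a gap of 1.41. ADSL was at 0.01 and -0.98, a gap of 0.995. DHODH was at 0.22 and -0.78, a gap of 1.0. For PFAS and ADSL the pair 1 value is within 0.02 of no difference. Opposite directions were found for 30.1% of all tested genes.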

How the results depend on the processing

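The replicate block changed the calls most. Members called went from 0 to 2 with the block, 2 with the block and at least 10 counts in every library, 1 with the block and DESeq2, and 1 with the block and upper-quartile scaling. All genes called went from 0 to 42 with DESeq2, 1290 with the block, 1236 with the block and at least 10 counts, 818 with the block and DESeq2, and 1165 with the block and upper-quartile scaling. Other nucleotide genes called went from 0 to 8 with the block. With DESeq2 and the block RRM2, ADSS1 and ALDH1L2 were lost, and PHGDH and MTHFD2 were gained. The median over all genes was 0.13 (log2) with upper-quartile scaling and 0.14 with no filter, beside 0.06. In these alternatives no member changed direction. Leaving out 1 library at a time, without the block, the members' median ranged from -1.251 to -0.018 and 6 members changed direction, with ranges of -1.60 to 0.11 (PPAT), -0.34 to 0.63 (GART), -2.05 to 0.42 (PFAS), -1.36 to 0.26 (ADSL), -1.15 to 0.14 (ATIC) and -0.69 to 0.07 (DHODH). The others stayed below 0, at -1.57 to -0.14 (PAICS), -1.84 to -0.56 (CAD), -1.58 to -0.45 (UMPS) and -0.50 to -0.26 (IMPDH2). Each of these fits holds 1 of the numbers in only 1 arm, so differences between the numbers enter its values. PPAT and ATIC, though among those that changed direction, were lower with rapamycin in both numbered pairs. A blocked fit without 1 library has no residual degrees of freedom and was not run. Members with a peak in HSC3 rapamycin cells went from 3 to 1 at a fold enrichment of at least 4. The cause of these shifts was not tested.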
